A study of Homo sapiens with 15 samples.

Results

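A set of 10 genes of the insulin-like growth factor (IGF) system was followed in MRC-5 cells, a human fibroblast line established from fetal lung: the ligands IGF1 and IGF2, the receptors IGF1R and IGF2R, and the binding proteins IGFBP2 to IGFBP7. These 10 members were chosen by name among the 57272 genes of the RNA-seq counts. Of the 15799 genes that passed the filter on low counts, 9 were members, and IGF1 was the member left out.

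Each of the 5 conditions had 3 libraries, from cells kept at low oxygen. Young cells were taken at population doubling (PD) 30, 6 days after infection with an empty virus (pWPIR-GFP) or a virus expressing the telomere protein TRF2 (pWPIR-GFP-TRF2), and 4 days after transfection with a control siRNA. Young cells with siLMNB1 carried the empty virus and received an siRNA pool against Lamin B1, a protein of the nuclear lamina, in place of the control siRNA. Senescent cells were infected with the empty or the TRF2 virus before they stopped dividing, reached their growth plateau at PD 71 with the empty vector and at PD 75 with TRF2, and then received the control siRNA. All cells thus carried a GFP vector and all descend from the line's single donor. The study calls its triplicates biological replicates, and whether they were cultured and infected separately is not given in the sources used here, so p-values measure the spread between these samples, which may be technical in part. In senescent cells, TRF2 expression and the difference in PD cannot be told apart. The study kept the TRF2 virus in these cells over many doublings before senescence, against 6 days in young cells. Where the effect of TRF2 is compared between states, the state and the length of TRF2 expression thus cannot be told apart.

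IGF1 and IGF2 are secreted peptides that signal growth and survival through the tyrosine kinase IGF1R. IGF2R, the cation-independent mannose 6-phosphate receptor, takes up IGF2 and delivers it to lysosomes. Binding proteins hold most extracellular IGF, extend its half-life and control its access to the receptor, and proteases release it from them. IGFBP7 binds IGFs only weakly. Several binding proteins are known as secreted products of senescent fibroblasts.

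Total counts per library lay between 26725885 and 43116046. Levels are given in CPM (counts scaled to a common library size) on library sizes scaled by edgeR's TMM method, and log2 fold changes with their SE come from the quasi-likelihood test of edgeR, with p-values adjusted after Benjamini and Hochberg over all tested genes. A gene was called when its adjusted p was below 0.05 and its log2 fold change reached 1 in either direction in the senescence comparisons, or 0.58 in the comparisons within one state. The targeted genes moved with their labels. LMNB1 fell from 59.7 ± 1.2 CPM (SD, n = 3) in young cells with the empty vector to 2.67 ± 0.28 with siLMNB1, and TERF2, which encodes TRF2, rose from 23.8 ± 1.8 to 195 ± 98 CPM in young and from 24.96 ± 1.47 to 235 ± 44 CPM in senescent cells with the TRF2 virus. The 10 fibroblast markers summed to between 20171 and 33742 CPM, with none at 0 in any condition, and were higher in the senescent libraries with TRF2 (25585 to 31803) than in those with the empty vector (20171 to 23635). The 5 immune markers summed to at most 0.279 CPM in young and to between 1.44 and 3.53 CPM in senescent libraries. The 5 endothelial markers summed to between 23.9 and 70.9 CPM, nearly all from TEK, while PECAM1 had at most 12 and CDH5 at most 4 counts in a library. The 6 epithelial markers summed to at most 11.02 CPM. This highest sum was in a young empty-vector library, where KRT5 had 209 counts (7.29 CPM), against 0 at the lowest of that group. MKI67, a marker of dividing cells, was at 61.5 ± 6.6 CPM in young and 6.37 ± 1.46 CPM in senescent empty-vector cells, at 23.6 ± 6.0 CPM with siLMNB1 and at 2.80 ± 0.39 CPM in senescent cells with TRF2. Of 7 state markers, 3 were called lower with TRF2 in senescent cells, which were MKI67, TOP2A (27.6 ± 6.5 to 13.8 ± 0.9 CPM) and LMNB1. The part of these differences in the results on IGF genes was not tested.

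The 6 senescent libraries are, per their labels, reanalysed data of an earlier submission, so the deposit and the state cannot be told apart. Their counts rose with GC content by 0.458 to 0.821 on the log2 scale per 10 percentage points, relative to the young cells with the empty vector, against -0.00490 to 0.130 in the 9 young libraries. Replicate 3 of the empty-vector senescent cells had the highest slope, and the other 5 senescent libraries lay between 0.458 and 0.504. Where the omission of that library changed a call of a member, the value without it is given, as are some other values that moved.

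The promoters of the members that were called in at least one comparison and have a single entry in RefSeq's promoter table (GRCh38.p14) are shown because these genes moved in different combinations. Each line holds the 100 bases before the annotated start, 5′ to 3′ on the strand of the gene. IGFBP3 is read at chr7:45921273-45921372 on the minus strand, IGFBP4 at chr17:40443350-40443449 on the plus strand, IGFBP5 at chr2:216695550-216695649 on the minus strand, IGFBP6 at chr12:53097567-53097666 on the plus strand and IGF1R at chr15:98648439-98648538 on the plus strand. Capitals mark matches on either strand to one of 5 motifs, chosen after the sequences were seen. These were TATAAA with its variants TATATA and TTTAAA, the letters of a TATA box, then GGGCGG, the letters of a GC box, and CACGTG, the letters of an E-box. No marked matches overlap in these windows.
IGFBP3: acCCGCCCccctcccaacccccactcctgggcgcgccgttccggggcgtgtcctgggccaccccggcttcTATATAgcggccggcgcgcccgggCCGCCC
IGFBP4: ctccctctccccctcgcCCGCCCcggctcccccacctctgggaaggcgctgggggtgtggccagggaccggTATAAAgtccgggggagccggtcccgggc
IGFBP5: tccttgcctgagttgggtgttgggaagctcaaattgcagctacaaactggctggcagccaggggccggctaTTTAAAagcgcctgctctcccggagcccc
IGFBP6: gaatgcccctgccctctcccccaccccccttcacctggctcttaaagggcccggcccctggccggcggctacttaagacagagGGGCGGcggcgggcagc
IGF1R: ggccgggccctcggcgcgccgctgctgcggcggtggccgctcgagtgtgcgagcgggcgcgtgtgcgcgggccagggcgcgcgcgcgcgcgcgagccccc
IGFBP3 had TATATA from 30 to 25 bases before its start, IGFBP4 had TATAAA from 29 to 24 bases before and IGFBP5 had TTTAAA from 29 to 24 bases before. GGGCGG also stood in IGFBP3, from 98 to 93 and from 6 to 1 bases before the start, and in IGFBP4, from 83 to 78 bases before. IGFBP6 had GGGCGG from 17 to 12 bases before its start, and IGF1R had no match in these 100 bases, of which 87% were G or C. Among the shown genes, IGF1R alone had matches further upstream within 250 bases, with GGGCGG from 205 to 200 and from 192 to 187 bases before its start. Of 35116 promoters in the table, 10.7% had TATAAA, 3.73% TATATA, 11.3% TTTAAA, 42.6% GGGCGG and 6.34% CACGTG in the 250 bases before the start. Of the 10 members 8 have an entry, of which IGF1 and IGFBP2 have several. IGF2 and IGFBP7 are not shown. The RefSeq starts of IGFBP3 and IGFBP6 differ from the ends of the GENCODE gene spans given with their values.

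Levels of different genes were compared per kb of exon. In young cells with the empty vector, IGFBP4 led with 484 ± 23 CPM per kb (SD, n = 3), followed by IGFBP5 with 271 ± 30, IGFBP6 with 58.6 ± 2.4, IGFBP7 with 47.6 ± 2.6, IGF2R with 29.1 ± 1.8 and IGFBP3 with 14.5 ± 1.5. IGF2 followed with 6.501 ± 0.127, IGF1R with 4.17 ± 0.04 and IGFBP2 with 0.649 ± 0.125 CPM per kb. The ranges of neighbours in this order did not overlap. The young fibroblasts thus carried far more binding protein mRNA than ligand or IGF1R mRNA per unit of length.

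Of the 9 tested members, 5 were called between senescent and young empty-vector cells, against a background of 28.5% of all tested genes (16.7% higher and 11.8% lower). IGF2 fell, and IGFBP2, IGFBP4, IGFBP6 and IGFBP7 rose. With TRF2 in both states, 5 of 9 members were again called, against a background of 24% (11.9% higher and 12.1% lower): IGF2 fell, and IGFBP2, IGFBP4, IGFBP5 and IGFBP7 rose. By adjusted p alone, 6 members passed with the empty vector (background 64.7%) and 8 with TRF2 (background 58.3%). The ranges of the libraries did not overlap for 6 members with the empty vector (background 64.7%) and for 7 members with TRF2 (background 71.4%). The median log2 fold change of the 9 members was 0.81 with the empty vector and 0.97 with TRF2, beside 0.02 and -0.02 over all tested genes. In bulk RNA, fewer cells expressing a gene and less of its RNA per cell cannot be told apart.

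**Figure D1:**
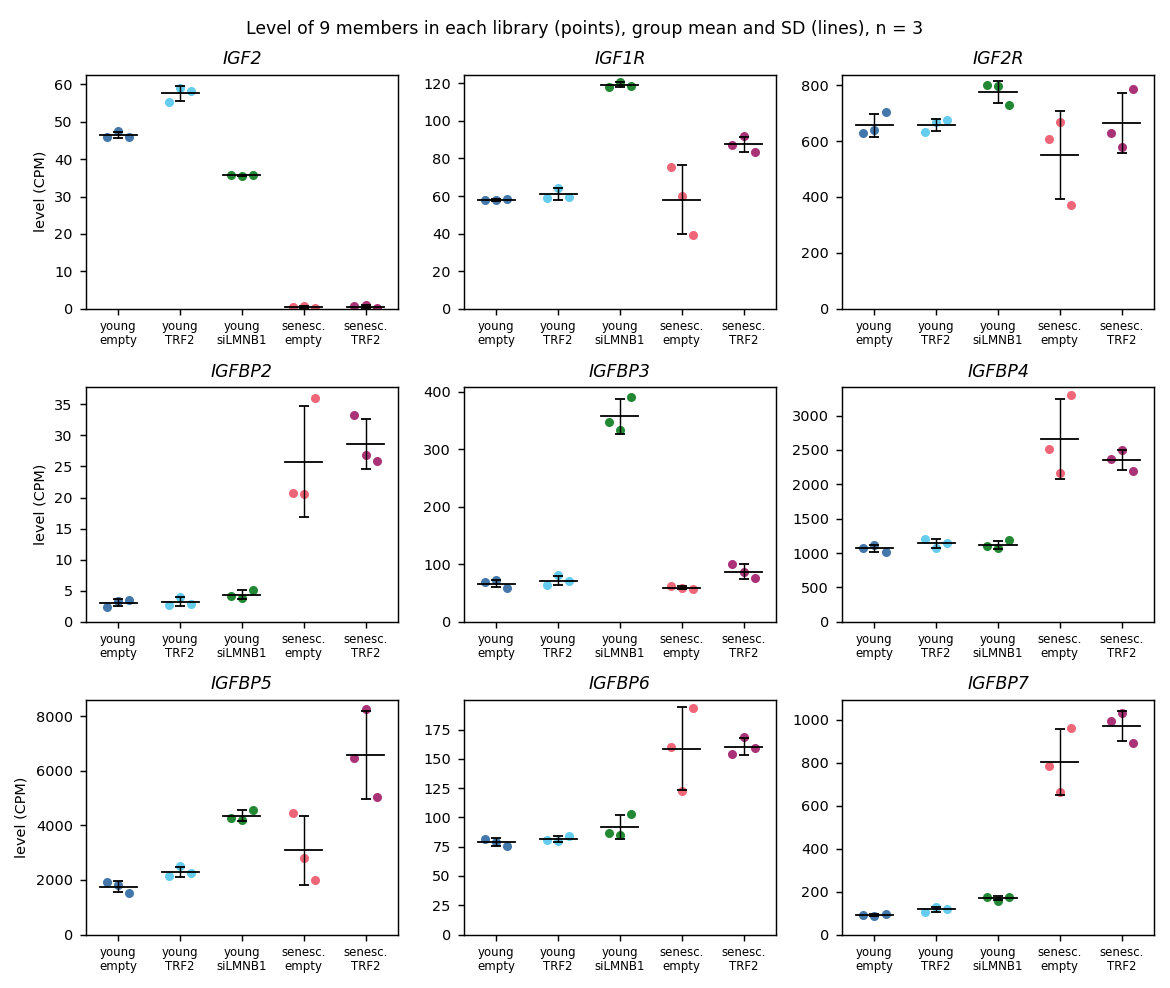
Level in CPM (vertical axes, from 0) of the 9 tested members in each of the 15 libraries. Points are libraries, and lines are the mean and SD of each condition (n = 3). IGF2 is at most 0.923 CPM in the 6 senescent libraries, IGFBP3 stands out in the 3 siLMNB1 libraries, and replicate 3 of the empty-vector senescent cells (the right point of that group) has the lowest IGF1R and IGF2R and the highest IGFBP4 of its group.

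IGF1 (ENSG00000017427, chromosome 12, 102395874 to 102481744, minus strand) was at the limit of detection. It had 0 counts in all 6 young libraries with the control siRNA, and 1, 4 and 0 counts in the siLMNB1 libraries. The senescent libraries had 2, 0 and 1 counts with the empty vector and 3, 5 and 6 counts with TRF2. These counts do not allow a fold change, and 82.5% of the exonic bases of IGF1 lie opposite HELLPAR, an antisense RNA with 0 to 17 counts per library. The strand setting of the counting is not given in the sources used here, so reads of the pair cannot be told apart.

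IGF2 (ENSG00000167244, chromosome 11, 2129112 to 2158391, minus strand), the fetal growth factor expressed from the paternal allele, was the member with the largest difference. Its level was 46.0, 47.5 and 45.9 CPM in young cells with the empty vector and 0.595, 0.741 and 0.162 CPM in senescent ones, from 1233 to 1618 counts against 5 to 20 counts. With TRF2 it was 55.2, 59.1 and 58.3 CPM in young and 0.637, 0.923 and 0.285 CPM in senescent cells. No senescent library thus exceeded 0.923 CPM, and no young library was below 35.6. IGF2 was 94.8-fold lower with the empty vector (log2 fold change -6.57 ± 0.27 SE, adjusted p = 5.95e-12) and 94.5-fold lower with TRF2 (-6.56 ± 0.25, adjusted p = 2.82e-12). Without replicate 3 of the senescent empty-vector cells, its log2 fold change with the empty vector was -6.13. Corrected for GC content and length by offsets, IGF2 was 163-fold and 149.9-fold lower. These folds are those of the deposited counts. Whether the senescent libraries, of an earlier submission, were counted with the same annotation as the young ones is not given in the sources used here, and for a gene with shared exons such as IGF2 the annotation can change what is counted.

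Part of IGF2 cannot be assigned to one gene by its exons. Of its 7146 exonic bases, 43.2% belong on the same strand to other genes of GENCODE 44: 37.9% to ENSG00000284779, which has no row in the counts used here, and 20.4% to the readthrough gene INS-IGF2 and 5.22% to the lncRNA ENSG00000240801, which both had 0 counts in every library. These shares overlap one another. Large falls were more frequent among such genes in the senescent libraries. Of 352 tested genes that share at least 25% of their exonic bases with same-strand genes that have no row, 56 (15.9%) were at least 16-fold lower in senescent than in young empty-vector cells, against 139 of 14860 (0.935%) with no such bases. With TRF2 the same shares were 64 of 352 (18.2%) and 181 of 14860 (1.22%), and with siLMNB1 they were 0 of 352 and 2 of 14860. Rises of at least 16-fold numbered 4 of 352 (1.14%) and 146 of 14860 (0.983%) with the empty vector. The part of shared exons in the lower counts of IGF2 was not tested, so the folds cannot be read as the change in IGF2 mRNA alone.

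**Figure D2:**
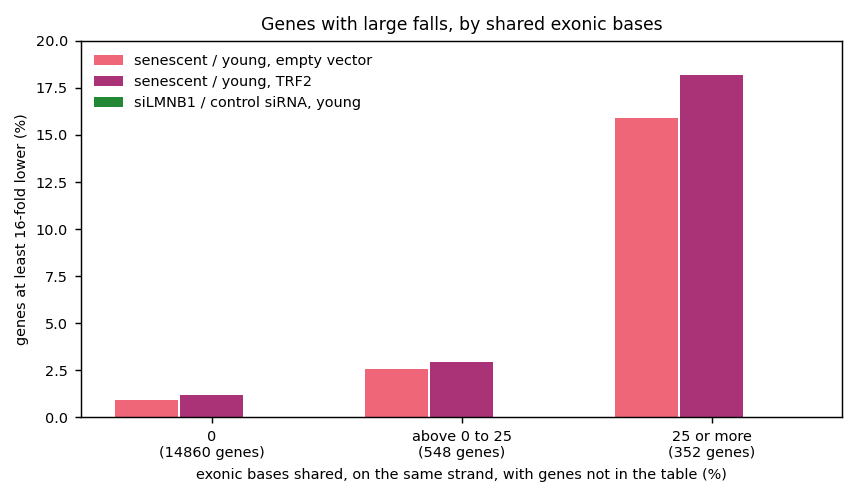
Share of tested genes at least 16-fold lower (vertical axis, percent), by the percent of a gene's exonic bases that lie on the same strand in annotated genes with no row in the counts, in 3 comparisons. IGF2, at 37.9%, belongs to the class of 25% or more, where 15.9% and 18.2% of genes fell in the senescence comparisons and 0% with siLMNB1.

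Within one state, IGF2 was not called. Its level was 35.8, 35.6 and 35.7 CPM with siLMNB1, below all 3 libraries with the control siRNA, but the log2 fold change of -0.38 ± 0.17 SE did not pass (adjusted p = 0.103). TRF2 in young cells gave 0.31 ± 0.17 (adjusted p = 0.599), with no overlap of the ranges. In senescent cells TRF2 gave 0.31 ± 0.40 (edgeR adjusted p = 0.634), and -0.14 without empty-vector replicate 3.

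The receptors did not pass the fold change threshold between senescent and young cells. IGF1R (ENSG00000140443, chromosome 15, 98648539 to 98964530, plus strand) was at 57.7, 57.9 and 58.7 CPM in young cells with the empty vector and at 75.7, 59.8 and 39.0 CPM in senescent ones, a log2 fold change of 0.00 with a 95% interval from -0.33 to 0.33. The senescent libraries spread on both sides of the young ones, with replicate 3 the lowest. Without that replicate the log2 fold change was 0.20 (adjusted p = 0.0315), and without senescent replicate 1 it was -0.24 (adjusted p = 0.101). With TRF2, IGF1R was higher in all 3 senescent libraries, with 87.1, 91.8 and 83.5 CPM against 59.1, 64.5 and 59.5, at a log2 fold change of 0.52 ± 0.15 SE (adjusted p = 0.00819), under the threshold of 1.

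IGF2R (ENSG00000197081, chromosome 6, 159969082 to 160113507, plus strand) was called in no comparison. Its means were 657 ± 41 CPM in young cells with the empty vector, 658 ± 22 with TRF2 and 775 ± 41 with siLMNB1 (SD, n = 3), and 550.0 ± 157 and 664 ± 108 CPM in senescent cells with the empty vector and TRF2. Its log2 fold changes lay between -0.26 and 0.27 over the 5 comparisons, and the 95% interval in senescence ran from -0.60 to 0.08 with the empty vector. Replicate 3 of the empty-vector senescent cells was at 372 CPM and the other senescent replicates of that group at 609 and 670. Without replicate 3 the log2 fold change was -0.06 between senescent and young cells in place of -0.26, and 0.06 between TRF2 and the empty vector in senescent cells in place of 0.27. A pseudogene, CHP1P2, shares 2.53% of its exonic bases on the same strand.

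The binding proteins that rose most in senescence were IGFBP7 and IGFBP2. IGFBP7 (ENSG00000163453, chromosome 4, 57030773 to 57110385, minus strand), a secreted glycoprotein, was at 92.5, 86.7 and 96.6 CPM in young and 784, 662 and 963 CPM in senescent cells with the empty vector. It was 8.74-fold higher (log2 fold change 3.13 ± 0.13 SE, adjusted p = 5.88e-12), and 8.25-fold higher with TRF2 (3.04 ± 0.13, adjusted p = 6.12e-12), where senescent libraries held 993, 1030 and 892 CPM. The groups were far apart in both comparisons. With the GC and length offsets the log2 fold changes were 3.21 and 3.25. On the opposite strand, 13.5% of its exonic bases are shared with POLR2B.

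IGFBP2 (ENSG00000115457, chromosome 2, 216632828 to 216664436, plus strand) binds IGF2 with high affinity. It was the least abundant of the 6 binding proteins followed, in CPM and per kb of exon. IGFBP1, which is no member, had at most 6 counts in a library. IGFBP2 had 2.41, 3.29 and 3.54 CPM in young and 20.7, 20.6 and 36.1 CPM in senescent cells with the empty vector. The rise was 8.38-fold (log2 fold change 3.07 ± 0.24 SE, adjusted p = 1.53e-08) and 8.98-fold with TRF2 (3.17 ± 0.23, adjusted p = 8.97e-09). Without replicate 3 of the senescent empty-vector cells, its highest library, the log2 fold change was 2.72 (adjusted p = 1.65e-10). With the GC and length offsets the log2 fold changes were 2.62 with the empty vector and 2.86 with TRF2. IGFBP2 remained low even in senescence, at 5.44 ± 1.88 CPM per kb of exon with the empty vector. With the longest coding transcript as length, its share of the 6 binding proteins there overlapped that of IGFBP3. The shares were 0.567% to 0.944% for IGFBP2 and 0.809% to 1.09% for IGFBP3.

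IGFBP4 and IGFBP6 rose less, and their calls were lost with offsets for GC content and length. IGFBP4 (ENSG00000141753, chromosome 17, 40443450 to 40457725, plus strand), an inhibitor of IGF action that the protease PAPPA cleaves, was at 1074, 1115 and 1014 CPM in young and 2520, 2158 and 3297 CPM in senescent cells with the empty vector. Its log2 fold change was 1.32 ± 0.12 SE (adjusted p = 1.11e-07), and 1.04 ± 0.12 with TRF2 (adjusted p = 1.65e-06). All senescent libraries lay above all young ones in both comparisons. Its call with TRF2 was lost without young replicate 2 (1.00) or senescent replicate 2 (0.99). With offsets for GC content and length the values were 0.54 (adjusted p = 2.23e-05) and 0.55 (adjusted p = 1.74e-05), below the threshold of 1.

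IGFBP6 (ENSG00000167779, chromosome 12, 53097436 to 53102345, plus strand), which prefers IGF2 to IGF1, was at 81.8, 79.3 and 75.5 CPM in young and 160, 123 and 193 CPM in senescent cells with the empty vector. Its log2 fold change of 1.01 ± 0.13 SE (adjusted p = 3.75e-06) sat at the threshold, and that with TRF2, 0.97 ± 0.13 (adjusted p = 6.06e-06), just under it (1.00, called, without senescent replicate 1). Its call with the empty vector was lost without senescent replicate 3 (0.82), without senescent replicate 1 (1.00) or without young replicate 3 (0.97). With the offsets it was 0.17 (adjusted p = 0.156) with the empty vector and 0.44 (adjusted p = 0.000929) with TRF2. The exons of IGFBP4 and IGFBP6 have 62.6% and 63.2% GC, the highest of the members.

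**Figure D3:**
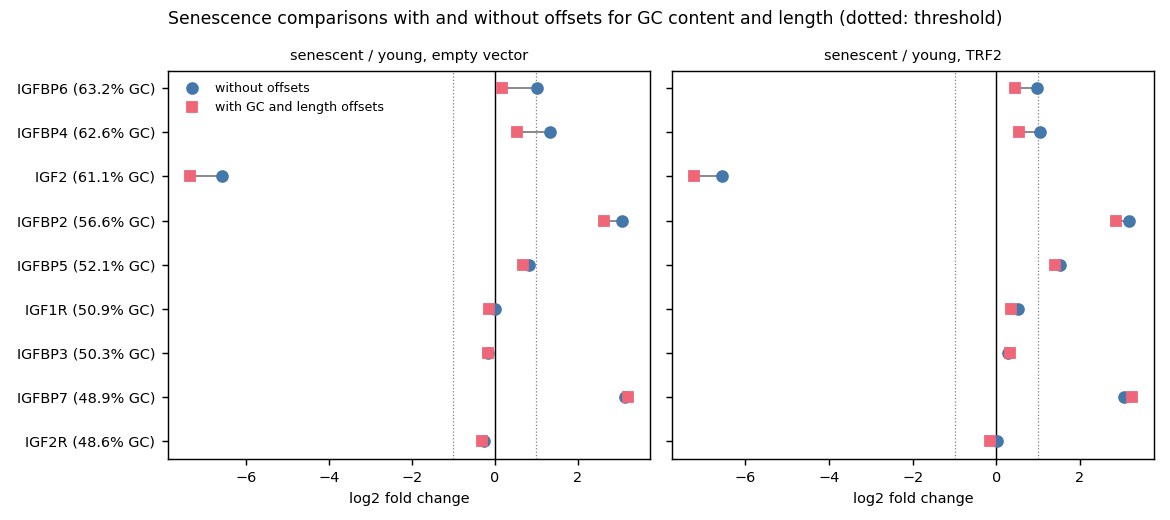
Log2 fold change between senescent and young cells (horizontal axes) of the 9 tested members with the empty vector and with TRF2, without offsets (circles) and with offsets for GC content and length (squares). Genes are ordered by the GC content of their exons. The values of IGFBP6 and IGFBP4 move from 1.01 to 0.17 and from 1.32 to 0.54 with the empty vector, and that of IGFBP7 moves from 3.13 to 3.21.

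IGFBP5 (ENSG00000115461, chromosome 2, 216672105 to 216695549, minus strand), a binding protein that also attaches to the extracellular matrix, lies 7668 bases beyond the end of IGFBP2, tail to tail with it. Its replicates lay far apart in senescent cells. It was at 1913, 1806 and 1538 CPM in young and 4445, 2802 and 1988 CPM in senescent cells with the empty vector, all senescent libraries above all young ones. The log2 fold change of 0.81 ± 0.22 SE (adjusted p = 0.00388) stayed under the threshold, and was 1.03 (adjusted p = 2.62e-05) without senescent replicate 3 and 0.44 (adjusted p = 0.028) without senescent replicate 1. With TRF2 it rose from 2132, 2511 and 2239 to 6474, 8242 and 5022 CPM, a log2 fold change of 1.52 ± 0.22 (adjusted p = 2.01e-05). An antisense RNA, DIRC3-AS1, shares 7.53% of its exonic bases.

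IGFBP3 (ENSG00000146674, chromosome 7, 45912245 to 45921874, minus strand), the main carrier of IGFs in serum, was not called in senescence. It was at 68.3, 71.8 and 58.9 CPM in young and 61.7, 58.5 and 57.5 CPM in senescent cells with the empty vector, with a log2 fold change of -0.16 and a 95% interval from -0.41 to 0.08. With TRF2 the log2 fold change was 0.28 ± 0.11 SE (adjusted p = 0.0431), and the ranges overlapped.

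**Figure D4:**
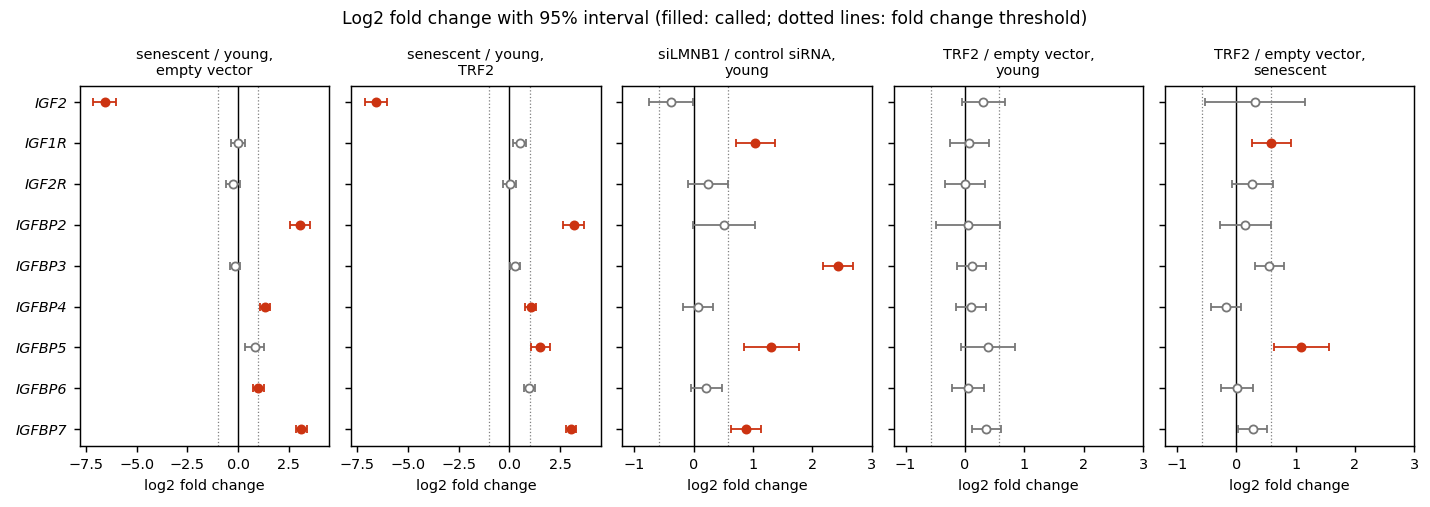
Log2 fold change (horizontal axes, with 95% intervals) of the 9 tested members in the 5 comparisons. Filled points are called, open points are not, and dotted lines mark the thresholds of 1 and 0.58. IGF2 is at -6.57 and -6.56 in the senescence comparisons, IGFBP3 is at 2.43 with siLMNB1, and no member is called with TRF2 in young cells.

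Depletion of Lamin B1 in young cells raised 4 of the 9 tested members, IGFBP3, IGFBP5, IGF1R and IGFBP7, against a background of 10.3% of all tested genes called higher, 8.06% called lower and 18.3% in either direction. No member was called lower. IGFBP3 responded most. It was at 348, 333 and 391 CPM with siLMNB1, 5.38-fold above the control siRNA (log2 fold change 2.43 ± 0.12 SE, adjusted p = 2.83e-09). IGFBP5 was at 4281, 4182 and 4566 CPM, 2.48-fold higher (1.31 ± 0.22, adjusted p = 0.000281). IGF1R was at 118, 121 and 119 CPM, 2.05-fold higher (1.04 ± 0.15, adjusted p = 9.47e-05). The young libraries with the control siRNA were close together for each of these genes. The ranges of 8 of the 9 members did not overlap between siLMNB1 and control siRNA, 7 higher and 1 lower (background 57.4%).

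IGFBP7 was at 176, 158 and 174 CPM with siLMNB1, 1.84-fold higher (0.88 ± 0.12, adjusted p = 3.36e-05). IGFBP4 was at 1099, 1070.2 and 1187 CPM with siLMNB1, a log2 fold change of 0.07 with a 95% interval from -0.19 to 0.32. IGFBP6 (0.21 ± 0.13, adjusted p = 0.209) and IGFBP2 (0.50 ± 0.25, adjusted p = 0.132) were not called. The 4 calls were made under every alternative tried, including each library left out. The GC trend was small in these libraries, and with the offsets the log2 fold change of IGFBP3 was 2.42.

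The responses to siLMNB1 and to senescence share the young libraries with the empty vector and are given side by side. IGFBP3 had a log2 fold change of 2.43 with siLMNB1 and -0.16 in senescence with the empty vector, and IGF1R had 1.04 and 0.00. IGFBP4 had 0.07 and 1.32, and IGF2 had -0.38 and -6.57. IGFBP7 rose in both, by 0.88 and 3.13. LMNB1 itself was at 2.67 ± 0.28 CPM with siLMNB1 and 5.13 ± 0.53 CPM in senescent cells with the empty vector (SD, n = 3). The differences between the responses were not tested.

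With TRF2 in young cells, edgeR called 0 of the 9 members and 0.165% of all tested genes. The ranges of 4 members lay above those with the empty vector without overlap (background 23.6% in either direction). Only IGFBP7 had an unadjusted p below 0.05 (background 9.66%, log2 fold change 0.36 ± 0.12 SE, adjusted p = 0.304), and DESeq2's Wald test also called 0. In senescent cells 2 of 9 members were called higher, IGFBP5 and IGF1R, against a background of 2.61% called higher and 6.91% in either direction. IGFBP5 went from 4445, 2802 and 1988 CPM with the empty vector to 6474, 8242 and 5022 CPM with TRF2, 2.14-fold (1.10 ± 0.22, adjusted p = 0.00526). IGF1R went from 75.7, 59.8 and 39.0 to 87.1, 91.8 and 83.5 CPM, 1.505-fold (0.59 ± 0.15, adjusted p = 0.0224). The TRF2 libraries were above all empty-vector libraries for both genes and for IGFBP3 (background of ranges apart 26.8%). The summed fibroblast markers were higher and MKI67, TOP2A and LMNB1 lower in the same TRF2 libraries, and their part in these differences was not tested.

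These comparisons share libraries with the senescence comparisons of the same vector. Both calls were lost in a fit on fewer libraries. Fitted on the 6 senescent libraries alone, 2 genes of all were called in place of 1092, and IGFBP5 and IGF1R had adjusted p = 0.156 and adjusted p = 0.254. Without senescent empty-vector replicate 3, IGF1R had a log2 fold change of 0.37 and IGFBP5 of 0.87. The first of these was below the threshold. Without the same library IGFBP7 had 0.43 (edgeR adjusted p = 0.00374) in place of 0.27, and IGFBP2 had 0.48 in place of 0.15. Both stayed under the threshold. The call of IGF1R was also lost without TRF2 replicate 1, 2 or 3 (adjusted p from edgeR of 0.0692, 0.0859 and 0.0503), and with the GC and length offsets (0.53). IGFBP5 had 1.46 and IGF1R 0.83 without empty-vector replicate 1. IGFBP3 had 0.56 ± 0.11 (adjusted p = 0.00615), just under the threshold of 0.58, and was called without empty-vector replicate 1 (0.59) or TRF2 replicate 3 (0.65).

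In edgeR's interaction test, which asks whether the response to senescence differs between TRF2 and the empty vector, 0 of the 9 members and 1.13% of all genes were called. There were 3 members with an unadjusted p below 0.05 (background 15.9%), and all had larger rises with TRF2: IGFBP5 (difference of log2 fold changes 0.71 ± 0.31 SE, adjusted p = 0.275), IGF1R (0.52 ± 0.22, adjusted p = 0.259) and IGFBP3 (0.45 ± 0.16, adjusted p = 0.195). DESeq2's Wald test also called 0. Without senescent empty-vector replicate 1, IGFBP5 (1.07, adjusted p = 0.00624) and IGF1R (0.76, adjusted p = 0.00789) were called.

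The composition of the binding protein mRNA was compared per kb of exon, without offsets for GC content. With the offsets the rise of IGFBP4 in senescence with the empty vector was 1.45-fold in place of 2.49-fold and that of IGFBP6 1.12-fold in place of 2.01-fold, while that of IGFBP7 was 9.26-fold in place of 8.74-fold, so the sums and shares of senescent cells depend on the GC trend. Per kb of exon, the 6 binding proteins summed to 877 ± 51 CPM in young cells with the empty vector (SD, n = 3), 1011 ± 8 with TRF2 and 1414 ± 76 with siLMNB1. In senescent cells the sums were 2234 ± 324 with the empty vector and 2733 ± 357 with TRF2. IGFBP4 made up 55.3% ± 1.4 of the sum in young cells with the empty vector, 35.9% ± 0.1 with siLMNB1, 53.8% ± 6.3 in senescent cells with the empty vector and 39.3% ± 2.7 with TRF2.

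IGFBP5 held 30.9% ± 1.8 in young cells with the empty vector and 47.5% ± 0.4 with siLMNB1, where it passed IGFBP4. In senescent cells its share was 29.0%, 23.3% and 12.5% with the empty vector and 36.6%, 41.3% and 32.7% with TRF2. IGFBP7 held 5.45% ± 0.60 in young cells with the empty vector, 6.21% ± 0.28 with siLMNB1, and 18.6% ± 1.6 and 18.5% ± 1.1 in senescent cells with the empty vector and TRF2. IGFBP3 held 1.65% ± 0.08 in young cells with the empty vector, 5.52% ± 0.17 with siLMNB1 and 0.589% ± 0.090 in senescent cells with the empty vector. IGFBP2 held at most 0.308% in any library. With the longest coding transcript as length, IGFBP2 reached 0.944%, and IGFBP3 held 2.72% in young cells with the empty vector and 8.81% with siLMNB1. In senescent cells with TRF2, IGFBP4 (1068 ± 68 CPM per kb) and IGFBP5 (1018 ± 249.4) did not differ beyond their spread, and neither did IGFBP5 (476 ± 194) and IGFBP7 (416 ± 79) with the empty vector.

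**Figure D5:**
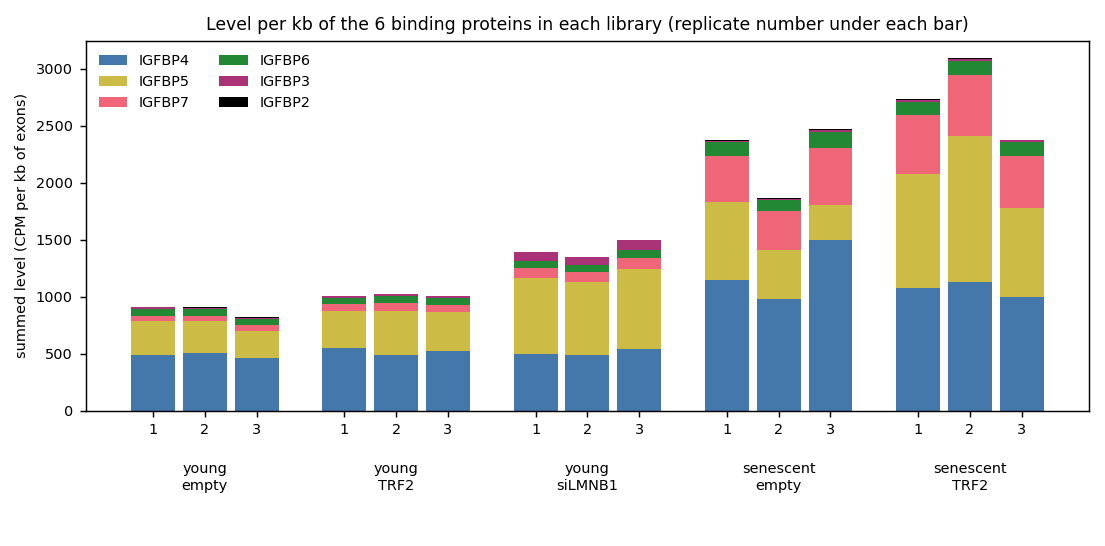
Summed level per kb of exon of the 6 binding proteins (vertical axis, CPM per kb, from 0) in each library, split by gene. Senescent libraries reach 1863 to 3089 CPM per kb and young libraries 817 to 1498. The segments of IGFBP4, IGFBP6 and IGFBP7, and the thin one of IGFBP2, are wider in all senescent than in all young libraries. That of IGFBP5 is wider in the siLMNB1 and senescent TRF2 libraries.

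Other genes of the pathway were read from lists. Of 14 regulators of IGFs and their binding proteins, 9 were tested. With the empty vector, 4 of these rose in senescence and none fell, beside 16.7% of all tested genes called higher and 11.8% called lower. They were the IGFBP4 protease PAPPA (log2 fold change 1.04 ± 0.28 SE, adjusted p = 0.00391), the lysosomal protease CTSD (1.02 ± 0.16, adjusted p = 2.87e-05), the secreted protease HTRA1 (1.01 ± 0.10, adjusted p = 2.69e-07, at the threshold) and KLK3, the prostate-specific antigen. KLK3 had 0 counts in all 9 young libraries and at most 28 in a senescent one, with 0 in 1 library of each senescent group. Its call was lost without any one young empty-vector library or without senescent replicate 2, and by DESeq2. PAPPA lost its call without senescent replicate 1 or 2 (lowest log2 fold change 0.77) and had 1.40 without senescent replicate 3, and CTSD lost its call without young replicate 1 or senescent replicate 3 and had 0.08 with the GC and length offsets. With TRF2, KLK3 and PAPPA (1.00 ± 0.28, adjusted p = 0.00534) rose and STC1 fell. There the call of KLK3 was lost without senescent replicate 1 and by DESeq2, and that of PAPPA, at the threshold, under 6 of 15 alternatives, which include the offsets (0.95) and the omission of young replicate 3 or of senescent replicate 2 or 3. PAPPA also rose with siLMNB1 (0.92 ± 0.28, adjusted p = 0.0183), from 118 ± 3 to 224 ± 14 CPM, and lost this call without control replicate 1 or 3.

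The stanniocalcins STC1 and STC2, which inhibit PAPPA, both fell with TRF2 in senescent cells. STC1 was at 287 ± 34 CPM in young cells with the empty vector and 42.7 ± 6.6 with siLMNB1, 6.72-fold lower (log2 fold change -2.75 ± 0.27 SE, adjusted p = 1.77e-06). In senescent cells it was at 525 ± 258 CPM with the empty vector and 140 ± 11 with TRF2, 3.76-fold lower with TRF2 (-1.91 ± 0.26, adjusted p = 0.000391). STC2 was at 656 ± 16 CPM in senescent cells with the empty vector and 410.5 ± 31.5 with TRF2 (-0.68 ± 0.08, adjusted p = 0.000224). Between senescent and young cells, STC1 had 0.87 (adjusted p = 0.00709) with the empty vector, under the threshold, and fell with TRF2 (-1.01 ± 0.26, adjusted p = 0.00298). The latter call, at the threshold, was lost under 6 of 15 alternatives, which include the offsets (-0.78), DESeq2 and the omission of senescent replicate 1 or 2. Fitted on the 6 senescent libraries alone, neither gene was called with TRF2 (adjusted p = 0.0732 and adjusted p = 0.0658). With TRF2 in senescent cells 3 of the 9 regulators fell, STC1, STC2 and the protease ADAM12 (-0.59 ± 0.16, adjusted p = 0.0277, not called without any one TRF2 replicate or without empty-vector replicate 2), and none rose, against a background of 4.3% called lower.

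Of 4 genes for insulin, its receptors and the growth hormone receptor, 2 were tested. GHR, through which growth hormone induces IGF1, rose from 0.889 ± 0.107 CPM in young to 2.61 ± 0.56 CPM in senescent cells with the empty vector (log2 fold change 1.54 ± 0.27 SE, adjusted p = 9.91e-05), and it also rose with TRF2 (2.10 ± 0.26, adjusted p = 3.08e-06) and with siLMNB1 (1.17 ± 0.27, adjusted p = 0.00322). INSR was not called in any comparison, and INS and INSRR had 0 counts throughout.

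Of 33 genes that signal inside the cell, 30 were tested. With the empty vector, 2 rose and 3 fell in senescence, beside 28.5% of all tested genes called in either direction. SOCS2, a feedback inhibitor of growth hormone signalling, fell from 63.5 ± 1.3 to 12.2 ± 1.7 CPM (log2 fold change -2.38 ± 0.10 SE, adjusted p = 8.20e-12), and it fell with TRF2 (-1.88 ± 0.10, adjusted p = 9.77e-11) and with siLMNB1 (-1.24 ± 0.09, adjusted p = 1.20e-07) as well. FOXO4, a transcription factor held back by AKT, rose (1.55 ± 0.15, adjusted p = 2.26e-07), and SOCS1 fell (-1.19 ± 0.25, adjusted p = 0.000618; -0.92 without senescent replicate 2, under the threshold). With siLMNB1 2 of the 30 rose and 4 fell, led by SOCS2, the kinase RPS6KB1 (-1.08 ± 0.12, adjusted p = 4.78e-06) and the transcription factor FOXO3 (-1.04 ± 0.19, adjusted p = 0.000649), beside 18.3% of all tested genes called. With TRF2, 1 of the 30 rose and 2 fell in senescence. None was called with TRF2 within one state. The median log2 fold change of this list was 0.04 with the empty vector and -0.09 with siLMNB1, beside 0.02 and 0.04 over all tested genes.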

How the data were processed

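Bulk RNA-seq of MRC-5 cells gave 15 libraries, 3 per condition. Per the labels, the authors used Trimmomatic for trimming and STAR on GRCh38 for mapping, and deposited raw counts per gene. All columns were assigned to a sample from its labels. The annotation release and strand setting of the counting are not given in the sources used here.

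Ensembl IDs were matched to GENCODE 44 (324 of 57272 had no match), which also gave exon unions, GC content and shared exons. After filterByExpr and TMM scaling, one edgeR model (version 4.0.16, R 4.3.3) with 5 condition means was fitted to all libraries, with the quasi-likelihood test and Benjamini-Hochberg adjustment over 15799 genes. The log2 thresholds of 1 (senescence) and 0.58 (siLMNB1) follow the study's methods, and 0.58 was also used for TRF2 within a state. CPM used the effective library sizes, and levels per kb the exon union. The precision of each value is limited by 3 libraries per condition. Offsets for GC content and length came from loess curves with a span of 0.3 and a prior count of 1. Profiles were compared by the root mean square difference of centred log2 CPM (prior count 2) over 15 libraries. Alternatives were DESeq2's size factors, total counts, DESeq2 1.42.0, no filter, a fit on only the compared libraries, the replicate number as a block, these offsets with and without the block, no fold threshold, another gene length, normalization on genes with no exon overlap (chosen after seeing the data) and each library left out. The test was tested on simulated data.

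The members and lists were chosen with earlier results of these data known. Named were all members, up to 3 called genes with the largest changes per list and comparison, HTRA1 and INSR (chosen after their values were seen) and the most alike gene of each tested member (that of IGF2 is not reported here). Python 3.11.15 with pandas 2.3.3, numpy 2.4.6, scipy 1.17.1 and matplotlib 3.10.9 made the tables and figures.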

Additional observations from a re-analysis of the deposited data

Results flagged for a closer look

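The effect of TRF2 differed between senescent and young cells for 2 genes of the lists, by edgeR's interaction test over all genes. Senescent cells had carried the TRF2 virus longer than young cells, so the state and the length of TRF2 expression cannot be told apart here. For STC2 the difference of log2 fold changes was -0.86 ± 0.12 SE (adjusted p = 0.00741). STC2 was at 699 ± 34 and 793 ± 75 CPM in young cells with the empty vector and TRF2, and at 656 ± 16 and 410.5 ± 31.5 CPM in senescent cells (SD, n = 3). It was called under all 21 alternatives, with values from -0.91 to -0.78. For STC1 the difference was -1.88 ± 0.36 (adjusted p = 0.027), with 287 ± 34 and 281 ± 6 CPM in young and 525 ± 258 and 140 ± 11 CPM in senescent cells. It was not called under 11 of 21 alternatives, which were the fit on only the libraries compared and the omission of any one library other than replicates 1 and 3 of the empty-vector senescent cells (values over all alternatives from -2.22 to -1.53, highest adjusted p 0.0891).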

How the results depend on the processing

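With offsets for GC content and length, 3 members in place of 5 were called in senescence with the empty vector (IGF2, IGFBP2 and IGFBP7), and also 3 with the replicate block and the offsets together. Without a fold change threshold 8 were called with TRF2. For TRF2 in senescent cells, total counts called 1 member in place of 2, and the fit on only the libraries compared called 0. In the interaction, no filter on low counts called 1 in place of 0. Leaving out one library gave 4 to 5 calls with the empty vector, 4 to 6 with TRF2, 4 with siLMNB1, 0 with TRF2 in young cells, 1 to 3 with TRF2 in senescent cells and 0 to 2 in the interaction. Without the filter and with DESeq2, IGF1 was also called in senescence with TRF2. The cause of these changes was not tested beyond the fewer libraries in some fits. Over all genes, TRF2 calls in senescent cells numbered 1092, and 2 to 2318 under the alternatives. TRF2 calls in young cells numbered 26, and 1 to 165, and interaction calls 179, and 6 to 2089. Among fold changes of the members under alternatives, 832 stayed on their side of the thresholds, 23 lost a call, 9 gained one and none of those called was reversed. The replicate block alone left 4 members called in senescence with the empty vector, without IGFBP6 (log2 fold change 0.99), and changed no other call of a member. PAPPA in senescence with the empty vector, CTSD there and ADAM12 with TRF2 in senescent cells also lost their calls under the block. Correlations of same-numbered samples lay between -0.105 and 0.0669, and at most 1 of 3 correlated best with its own number. This gave no sign of pairing by replicate number, but 3 libraries per condition cannot exclude it. With the longest coding transcript as length, 21 of 30 shares of binding proteins moved by more than 1 SD. Depth limits IGF1, with at most 6 counts.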

Other observations

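Other secreted proteins carry an IGF-binding domain without being classical binding proteins, and 8 of 11 were tested. In senescence with the empty vector 1 rose and 3 fell, beside 28.5% of all tested genes called. The matricellular proteins moved apart: CCN4 rose (log2 fold change 1.44 ± 0.33 SE, adjusted p = 0.00113; not called without senescent replicate 1, 0.66), and CCN2 fell from 568 ± 47 to 252 ± 69 CPM (-1.17 ± 0.15, adjusted p = 3.85e-06). ESM1 fell as well (-1.63 ± 0.41, adjusted p = 0.0022). With siLMNB1, 2 rose and 1 fell, beside 18.3% of all tested genes called. CCN4 rose (1.14 ± 0.33, adjusted p = 0.0135, not called without control replicate 3). CCN3 fell from 56.9 ± 2.6 to 15.4 ± 0.4 CPM (-1.89 ± 0.10, adjusted p = 4.67e-09), and HTRA3, a secreted protease, rose from 17.0 ± 1.5 to 35.9 ± 1.4 CPM (1.08 ± 0.12, adjusted p = 5.24e-06). HTRA3 fell in senescence with TRF2 (-1.71 ± 0.13, adjusted p = 9.85e-09), from 16.8 ± 1.2 to 5.11 ± 0.43 CPM. With the empty vector it was also lower, at 7.62 ± 1.44 CPM in senescent cells against 17.0 ± 1.5 in young ones.

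Of 6 genes of the IGF2 locus and of proteins that bind IGF2 mRNA, 3 were tested. H19, the neighbour of IGF2 at the imprinted locus, had at most 3 counts in a library. IGF2BP1 and IGF2BP3, which bind IGF2 mRNA, fell with siLMNB1 (-0.99 ± 0.11, adjusted p = 5.68e-06, and -0.67 ± 0.17, adjusted p = 0.0056), and none of the 3 was called in senescence. By edgeR's adjusted p alone, all 3 were lower in senescence with the empty vector and with TRF2 (backgrounds 64.7% and 58.3% in either direction). Their median log2 fold changes were -0.43 and -0.46, under the threshold of 1.

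The tested genes whose profile over the 15 libraries was most like that of a member, by root mean square difference of centred log2 CPM, were RDH10 for IGF1R (0.146), FBXO30 for IGF2R (0.0912), PLPPR3 for IGFBP2 (0.224), FGL2 for IGFBP3 (0.282), SCAF1 for IGFBP4 (0.0849), SVEP1 for IGFBP5 (0.210), HYAL2 for IGFBP6 (0.0563) and PALM for IGFBP7 (0.190). None of the 10 members lies within 2 Mb of a chromosome end, and IGF2 is the nearest, at 2.13 Mb.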
